A study of Homo sapiens with 8 samples.

Results

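In HCT8 cells, a line from a human ileocecal colorectal adenocarcinoma, 701 H3K4me3 regions were called at least 2 times as wide after *E. coli* MVs and after *V. cholerae* MVs as after mock treatment. They were chosen by their size. Peaks of the 3 H3K4me3 lists that shared at least 1 bp were merged into 39352 regions. Of these, 17695 held a peak in all 3 libraries, and 14674 of them carried at least 30 normalized tags in mock (tags per 10000000 tags of the library), and were eligible. The widened regions were those whose summed peak size reached 2 times mock with both MVs, and the other 13973 eligible regions served as the comparison. Cells were cultured for 5 h with membrane vesicles (MVs) of the *E. coli* strain MC1061, with MVs of the *V. cholerae* strain C6706, or with buffer alone (mock). H3K4me3 ChIP sequencing and FAIRE sequencing gave 1 library per treatment and assay, so no difference between treatments has a replicate check and no p-value is given. All cells came from 1 cell line, and the series holds 8 samples, of which 2 input libraries were not used here.

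H3K4me3, trimethylation of lysine 4 on histone H3, is laid down by the SET1 and MLL methyltransferases around the start sites of transcribed genes, and above all at CpG islands, where CXXC-domain proteins bind unmethylated CpG. Its broadest domains lie at genes that define a cell type, and weak H3K4me3 also marks active enhancers away from start sites. The width of a called peak depends on the mark and also on how many tags a library holds at the edge of a domain.

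The H3K4me3 libraries held 10528314 tags after *E. coli* MVs, 13011839 after *V. cholerae* MVs and 3463875 in mock, and 53.9%, 56.1% and 38.6% of those tags lay in called peaks. The stated calling threshold of each list equals 19.0 normalized tags per kb after *E. coli* MVs, 16.9 after *V. cholerae* MVs and 34.6 in mock, which is highest in mock. It is no strict floor, since called mock peaks held as few as 4 tags where the header gives 6, and eligible regions had mock densities down to 24.7 tags per kb. The treatment and the depth of its library cannot be told apart. All 10 colon epithelium markers checked, among them EPCAM, CDH1 and CDX2, had a peak at a start site in every library, against 1 of 12 blood markers (CD14). Of 13 annotated markers of fibroblast, endothelium, muscle, neuron and liver, 1 (COL1A1) had a peak with both MVs and 0 in mock.

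The sequence that the wider peaks took in is shown first, because in part of the regions they took in CpG-rich sequence at a start site. Each line is a stretch of 300 bases of hg19 that lay in a peak with both MVs and in no mock peak, outside every annotated exon. The lines for EMX1, KLF2, AXIN1 and SKIL end at the base before a start site of the gene and run in its direction, and capitals mark CpG dinucleotides.
EMX1 chr2:73144348-73144647, plus strand: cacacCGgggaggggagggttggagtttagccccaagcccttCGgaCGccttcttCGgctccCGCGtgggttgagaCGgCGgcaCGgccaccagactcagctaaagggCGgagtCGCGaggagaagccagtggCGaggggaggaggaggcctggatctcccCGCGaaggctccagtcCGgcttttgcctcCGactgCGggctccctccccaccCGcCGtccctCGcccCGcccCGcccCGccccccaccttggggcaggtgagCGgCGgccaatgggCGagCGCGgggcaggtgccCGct
KLF2 chr19:16435337-16435636, plus strand: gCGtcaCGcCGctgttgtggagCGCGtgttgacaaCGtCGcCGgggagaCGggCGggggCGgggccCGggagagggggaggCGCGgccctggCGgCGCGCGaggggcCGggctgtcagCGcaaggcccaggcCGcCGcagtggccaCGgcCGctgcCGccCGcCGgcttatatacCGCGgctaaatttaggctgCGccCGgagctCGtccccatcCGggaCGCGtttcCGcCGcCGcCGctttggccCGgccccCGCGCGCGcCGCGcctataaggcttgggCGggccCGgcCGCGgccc
AXIN1 chr16:402724-403023, minus strand: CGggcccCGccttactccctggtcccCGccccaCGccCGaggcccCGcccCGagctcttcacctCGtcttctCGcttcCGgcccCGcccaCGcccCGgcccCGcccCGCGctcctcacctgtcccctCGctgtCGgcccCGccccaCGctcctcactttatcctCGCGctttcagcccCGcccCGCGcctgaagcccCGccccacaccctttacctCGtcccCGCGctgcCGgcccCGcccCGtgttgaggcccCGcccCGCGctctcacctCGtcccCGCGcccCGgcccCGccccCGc
SKIL chr3:170074830-170075129, plus strand: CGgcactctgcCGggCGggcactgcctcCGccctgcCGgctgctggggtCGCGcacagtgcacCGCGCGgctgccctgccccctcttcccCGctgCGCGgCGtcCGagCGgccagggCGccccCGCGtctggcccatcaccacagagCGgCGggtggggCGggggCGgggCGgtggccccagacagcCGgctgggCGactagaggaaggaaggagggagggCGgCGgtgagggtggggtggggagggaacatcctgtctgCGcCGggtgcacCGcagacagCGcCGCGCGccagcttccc
Region near FOXP4 chr6:41472651-41472950, plus strand: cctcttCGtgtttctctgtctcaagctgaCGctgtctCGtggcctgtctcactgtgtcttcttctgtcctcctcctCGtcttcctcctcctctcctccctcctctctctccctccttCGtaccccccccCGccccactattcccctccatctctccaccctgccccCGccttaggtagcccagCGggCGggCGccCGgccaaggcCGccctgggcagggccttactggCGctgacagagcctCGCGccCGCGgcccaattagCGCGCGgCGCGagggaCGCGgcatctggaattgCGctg
EMX1 is a homeobox transcription factor of the forebrain, KLF2 a zinc finger transcription factor, AXIN1 the scaffold of the complex that degrades beta-catenin, and SKIL a corepressor of SMAD proteins. Their stretches held 30, 50, 41 and 35 CpG dinucleotides. The region near FOXP4, 40918 bp from its start site and with no annotated start of its own, held 25. In regions with 1 protein-coding gene, 1 start was measured, that of the longest transcript. Where this lay outside the region, the start nearest the mock peak centre was taken. In 192 widened regions the measured start lay in a peak with both MVs and in no mock peak. The 300 bases upstream of it held a median of 29 CpG and 70.3% GC. The median was 27 CpG where the start already lay in a mock peak (146 widened regions), and 24 CpG at 64.3% GC over the 8452 other eligible regions with 1 protein-coding gene. In 300 bases centred on the measured start, the 192 widened regions had a median of 38 CpG. The 684 other eligible regions with a start so placed had 35, so CpG-rich starts were common to both.

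In called size, the widened regions had a median of 2158 bp after *E. coli* MVs, 2188 bp after *V. cholerae* MVs and 800 bp in mock. The other eligible regions had medians of 2345 bp, 2347 bp and 1942 bp. A ratio over the mock size selects regions that are narrow in mock, so these sizes restate the rule. The widened regions had medians of 117.8, 139.1 and 46.2 normalized tags in the same order against 322, 358.1 and 207.9 in the other eligible regions. Of the 14674 eligible regions, 7.15% reached 2 times the mock size after *E. coli* MVs, 7.62% after *V. cholerae* MVs and 4.78% with both. By the rule all 701 widened regions did, with median size ratios of 2.52 and 2.60. A further 348 regions were widened after *E. coli* MVs only and 417 after *V. cholerae* MVs only, and 29 were narrowed at least 2-fold with both. In mock, 74 widened regions (10.6%) had the smallest size the caller gives, 500 bp, against 0.85% of the other eligible regions.

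**Figure D1:**
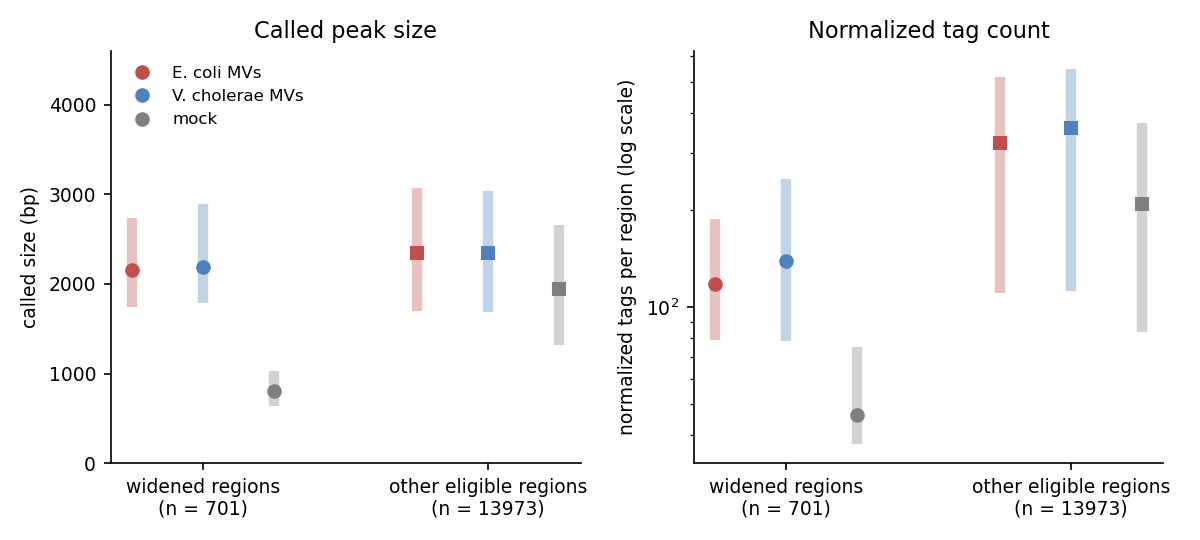
Called H3K4me3 size (bp, left) and normalized tags per region (log scale, right) in the widened regions and the other eligible regions, for *E. coli* MVs, *V. cholerae* MVs and mock. Points are medians and bars run from the lower to the upper quartile over regions; in mock the widened regions have a median of 800 bp and 46.2 tags, and the low mock size follows from the rule that chose them.

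At the threshold, the region at ANKRD36C was just inside, with 1000 bp after *E. coli* MVs, 1485 bp after *V. cholerae* MVs and 500 bp in mock. ANKRD36C has near-identical copies, so its tags may be shared among them. A region in an intron of CD9, a tetraspanin of the cell surface, was just outside, with 4915, 5291 and 2460 bp. The smaller ratios of size of these regions both round to 2.

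The region at EMX1 had the highest smaller ratio of size of all widened regions. It measured 4473 bp after *E. coli* MVs, 4090 bp after *V. cholerae* MVs and 636 bp in mock (chr2:73142445-73146918), and held 177.6, 248.2 and 31.8 normalized tags. Its log2 tag ratios over mock were 2.48 (95% interval 1.61 to 3.51) after *E. coli* MVs and 2.96 (2.11 to 3.98) after *V. cholerae* MVs. These intervals and all below cover counting error only, since tags are not counted as single molecules and there is no replicate. Tags per kb were 39.7, 60.7 and 50. The mock value rests on 11 tags, so the lower density after *E. coli* MVs cannot be told from counting error. PFKFB3, whose product makes the fructose 2,6-bisphosphate that activates glycolysis, measured 4387, 4213 and 754 bp and held 285.9, 315.1 and 49.1 normalized tags. Its log2 tag ratios were 2.54 (1.84 to 3.34) and 2.68 (1.99 to 3.48). PCDH7, a protocadherin of cell adhesion, measured 4800, 4511 and 988 bp with 163.4, 167.5 and 34.6 normalized tags. In all 3 genes a start site lay in no mock peak and in a peak with both MVs.

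The remaining regions among the 8 with the highest smaller ratio held no protein-coding start. An intron of SPRED2, an inhibitor of Ras and MAP kinase signalling, carried 2537, 2431 and 500 bp and 94.0, 79.2 and 31.8 normalized tags. A lncRNA start in an intron of ACTB, the gene of beta-actin, carried 2522, 2684 and 500 bp and 114.9, 212.1 and 31.8 normalized tags. The region near FOXP4 carried 2327, 2341 and 500 bp and 140.6, 153.7 and 34.6 normalized tags. In the SPRED2, ACTB and FOXP4 regions the mock peak was at the smallest size the caller gives and both MV libraries were far wider. A region 31503 bp from the start of CXXC5 also had 500 bp in mock. The region at the lncRNA ENSG00000289914 had 831 bp. Outside the naming rule, the largest tag ratio was at C1orf159, chosen after its values were seen, with 261.2, 382.7 and 31.8 normalized tags and log2 ratios of 3.04 and 3.59.

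The widened regions with most mock tags had mock sizes of 1277 to 4296 bp, all above the median of 800 bp. GCN1, an activator of the amino acid starvation kinase GCN2, and RPLP0, a protein of the ribosomal stalk, share a region of 4956, 4536 and 2072 bp. It held 649.7, 577.9 and 444.6 normalized tags, with log2 ratios of 0.55 (0.29 to 0.81) and 0.38 (0.13 to 0.64), and the ratio after *V. cholerae* MVs was -0.16 when tags were scaled to those in called peaks. ZBTB7A, a BTB zinc finger repressor, had 4 peaks in mock and 1 with each MV, at 10278, 10392 and 4296 bp and 900.4, 1301.1 and 334.9 normalized tags. Its log2 ratios were 1.43 (1.15 to 1.72) and 1.96 (1.69 to 2.24). CBX8, a Polycomb protein that binds methylated histone H3, had 590.8, 747.8 and 360.9 normalized tags, and TSC1, an inhibitor of the growth kinase complex mTORC1, had 439.8, 527.2 and 291.6. EFNA3, an ephrin ligand, had 675.3, 913.8 and 297.3, and PLXNB2, a semaphorin receptor, had 576.5, 733.9 and 280.0. SERF2, a small factor of protein aggregation, had 504.4, 585.6 and 329.1. In each of these 7 regions both MV libraries exceeded mock beyond counting error in the deposited scaling. Scaling to tags in called peaks shifts the log2 ratios after *E. coli* MVs by -0.48. The lower interval bounds after *E. coli* MVs at GCN1, CBX8, TSC1 and SERF2 (0.29, 0.43, 0.28 and 0.32) do not exceed the size of that shift. A region 9943 bp from the start of TTLL10 held no start site and had 944.1, 1105.1 and 430.2 normalized tags.

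Tag counts, which come from the same libraries as the sizes, were higher than mock with both MVs in 679 of the 701 widened regions (96.9%), against 73.3% of the other eligible regions. They were lower with both in 4, and higher with one kind of MV and lower with the other in 18. Tags were at least 2-fold higher in 420 widened regions (59.9%) after *E. coli* MVs, where 12% of all eligible regions were, and in 465 (66.3%) after *V. cholerae* MVs, where 22.7% were. The rule used this contrast, so nothing is read from these shares. The 95% interval of the tag ratio lay above 0 in 533 widened regions (76.0%) after *E. coli* MVs and in 529 (75.5%) after *V. cholerae* MVs, against 57.7% and 59.2% of all eligible regions. The median log2 tag ratio was 1.13 after *E. coli* MVs and 1.36 after *V. cholerae* MVs, against 0.41 and 0.47 in the other eligible regions. Scaling to tags in called peaks, of which mock had the smallest share, shifts every log2 ratio by -0.48 after *E. coli* MVs and -0.54 after *V. cholerae* MVs, and the medians of the widened regions were then 0.64 and 0.82.

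Tags per kb of called peak did not follow the sizes. They had medians of 55.1 after *E. coli* MVs, 66.4 after *V. cholerae* MVs and 63.6 in mock in the widened regions. The median log2 ratio per kb was -0.24 (95% interval -0.29 to -0.18 over regions) after *E. coli* MVs and -0.06 (-0.14 to 0.01) after *V. cholerae* MVs, where the other eligible regions had 0.16 and 0.22. In 359 widened regions (51.2%) tags per kb were lower than mock with both MVs, against 29.5% of the other eligible regions, and in 208 (29.7%) higher with both, against 58.1%. Called size is the divisor here, and the rule chose regions with a large size over mock. A lower ratio per kb than in the other eligible regions thus partly restates the rule, and nothing is read from these contrasts. The sign of the median after *V. cholerae* MVs changed with other settings of the rule. The added tags per added kb had a median of 49.7 after *E. coli* MVs and 67.8 after *V. cholerae* MVs in the widened regions. The other eligible regions are not set beside these, since their differences in size can be a few bp. In 424 widened regions (60.5%) this density was at or above the 34.6 tags per kb of the mock list header with both MVs, against 55.7% of the other eligible regions, where those that were not wider count as below. The part of library depth in this was not tested.

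The widened regions fell into classes by the start sites inside them. A protein-coding start lay in 376 (53.6%, against 71.6% of the other eligible regions), only a lncRNA start in 55 (7.85%, against 4.47%), and no annotated start in 270 (38.5%, against 23.9%). With a protein-coding start, the widened regions had medians of 160 normalized tags after *E. coli* MVs, 217.9 after *V. cholerae* MVs and 57.7 in mock. With no start, the medians were 82.6, 78.0 and 43.3. The median log2 tag ratios were 1.31 and 1.69 with a start and 0.84 and 0.76 with none. The other eligible regions with no start had medians of -0.06 and -0.47, so there the median lay below mock. Added tags per added kb had medians of 72.8 and 98.4 with a protein-coding start and 25.7 and 21.8 with none. The added density reached the threshold of the mock list header with both MVs in 322 of 376 regions with a start (85.6%) and in 74 of 270 without (27.4%). Outside the widened regions the shares were 70.3% with a protein-coding start and 12.3% with none, so the contrast between the classes was also present there.

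**Figure D2:**
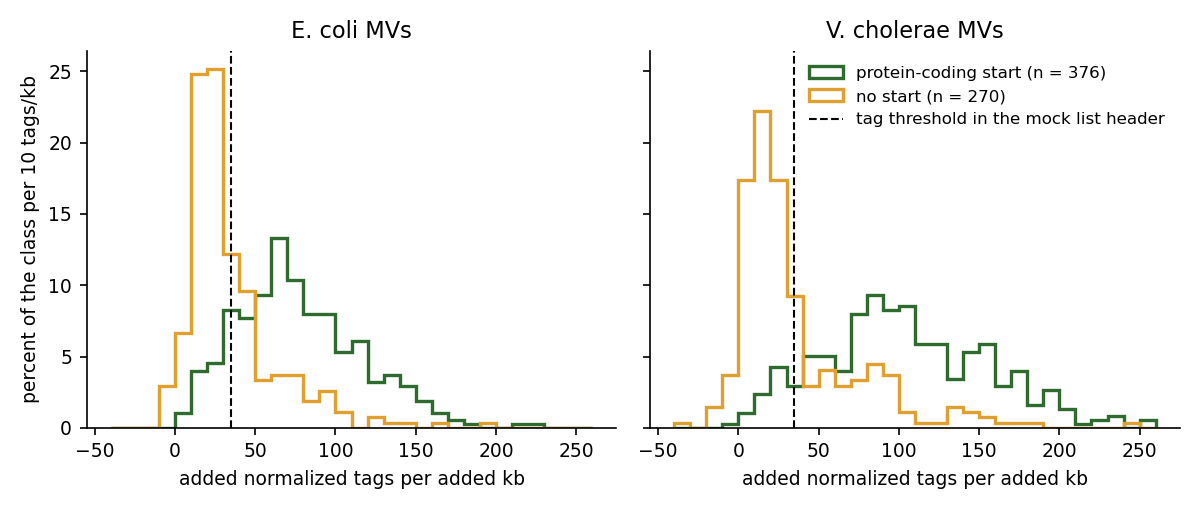
Added normalized tags per added kb (MV minus mock tags over MV minus mock size) in widened regions with a protein-coding start and with no start, after *E. coli* MVs (left) and *V. cholerae* MVs (right), as a percent of each class per 10 tags per kb. The dashed line is the tag threshold of 34.6 tags per kb in the header of the mock list; 27.4% of the regions with no start were at or above it with both MVs, against 85.6% of those with a protein-coding start.

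Start sites were taken in by the wider peaks in part of the widened regions. In 232 widened regions (33.1%) a gene had a start in a peak with both MVs and no start in any mock peak. The share was 4.81% in the other eligible regions. The widened regions held 261 such genes, 189 protein-coding and 72 lncRNA. Counted per length, 274 genes per Mb of gained sequence were newly covered in the widened regions and 153 per Mb in the others. Mock peaks held more genes with a start per length, at 379 per Mb in the widened regions and 477 per Mb in the others. Among 348 widened regions with the start of 1 protein-coding gene, 1 start per gene was measured, as above. A peak covered this start in 97.7% after *E. coli* MVs, in 99.4% after *V. cholerae* MVs and in 42.0% in mock. In the 8452 other regions of that kind the shares were 98.7%, 99.3% and 90.6%. The centre of the mock peak lay downstream of the start in 265 of the 348 (76.1%), against 86.4% of the other regions, at a median of 398 bp into the gene, which was close to the 397 bp of the other regions. Thus in 192 of the 348 (55.2%) the measured start lay in no mock peak and in a peak with both MVs, against 8.09% of the other regions. The rule favours narrow mock peaks (median 800 bp, against 1942 bp in the other eligible regions), which cover a start less often. The contrasts with the other regions in newly covered starts and in mock coverage of the start therefore partly restate the rule. Another start of the same gene can lie in a mock peak, so these regions need not be among the 232. In 150 of the 192 (78.1%) the mock peak centre was on the side of the gene body. The share was 92.0% in the 684 other regions with a measured start so placed. At 500 bp upstream of the start a peak was called in 74.7%, 81.3% and 18.4% of the widened regions, and at 500 bp downstream in 95.1%, 96.3% and 66.7%. The gain was a median of 532.5 bp upstream and 627.5 bp downstream of the start, against 93 and 113 bp in the other regions. It was larger downstream in 195 regions (56.0%), against 47.5% of the other regions. Regions with equal gain on both sides, or with none, count as not larger downstream. In the other regions the lower quartile of the gain was 0 bp on each side, so the shares are not directly comparable.

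**Figure D3:**
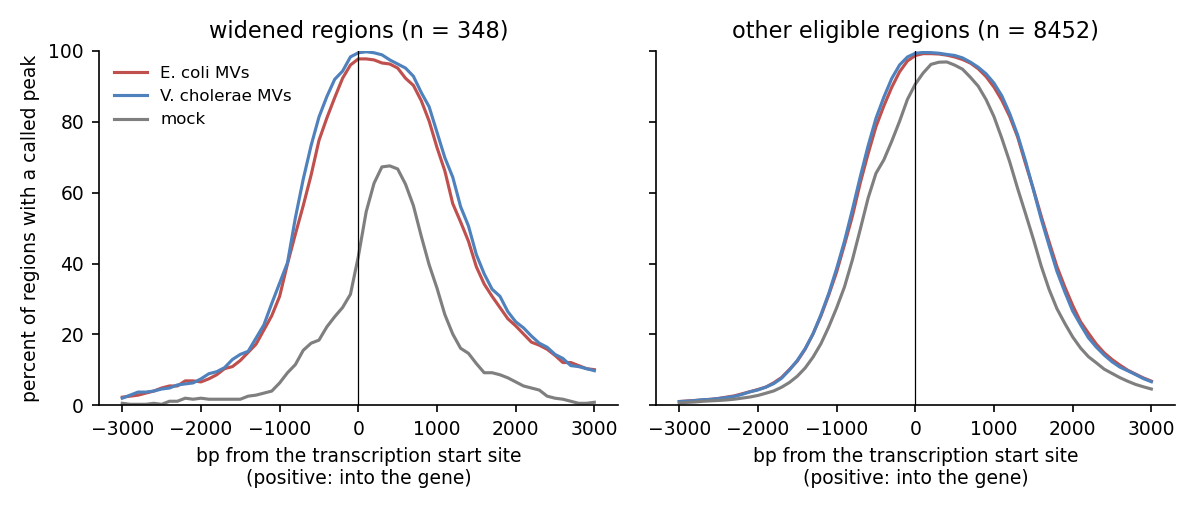
Percent of regions with a called H3K4me3 peak at each distance from the start site (bp, positive into the gene) after *E. coli* MVs, *V. cholerae* MVs and in mock, for widened regions (left, n = 348) and other eligible regions (right, n = 8452) with the start of 1 protein-coding gene. In the widened regions mock is lower throughout and is called at the start itself in 42.0%, against 97.7% and 99.4% with the MVs. The narrow mock peaks follow from the rule that chose these regions.

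TRAF1, an adaptor of tumour necrosis factor receptors, had its start in no mock peak and in a peak with both MVs. Its mock peak centre lay outside the gene, on the other side of the start than in most such regions. Its region measured 1638, 1432 and 634 bp and held 148.2, 177.5 and 34.6 normalized tags, with log2 ratios of 2.10 (1.25 to 3.08) and 2.36 (1.52 to 3.33). The mock part had 47.9% GC and the part gained with both MVs, which holds the start, 73.1%. AXIN1 likewise had 51.8% GC in the mock part and 68.9% in the gained part. H4C12, a gene of histone H4, went the other way, with 47.8% in the mock part and 39.7% in the gained part. Over all widened regions with a protein-coding start the medians were 63.6% and 63.1%, so a rise was not general.

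Wider peaks joined the starts of neighbouring genes in 60 widened regions (8.56%), against 2.30% of the other eligible regions. Joined means that starts of 2 or more genes lay in 1 peak with both MVs and in no common mock peak. The rule favours large gains (median 1145 bp, against 241 bp in the other eligible regions), so a higher share of joined starts partly follows from it. In 54 of the 60 the starts were on both strands, and in 39 a protein-coding gene was joined with lncRNA genes only. Protein-coding genes were joined with each other in 16. These shares (90%, 65% and 26.7%) were near those of the other eligible regions with joined starts, at 91.6%, 66.7% and 31.2%. No start lay in a mock peak in 23 (38.3%), and some starts but not all did in 37 (61.7%). The other eligible regions with joined starts had 13.4% and 76.6%. All joined genes had a start in a mock peak, in separate peaks, in 0 of the 60, against 32 of 321 in the other eligible regions. In each of the 60 the peak thus took in a gene with no start in a mock peak. Whether mock peaks that held starts also fused in regions with 3 joined genes was not counted.

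The 6 regions with most starts joined had 3 genes each. SLC2A4RG, a transcription factor of the glucose transporter gene SLC2A4, was joined with LIME1, an adaptor of Src-family kinases, and with ENSG00000273047. All 3 are annotated as protein-coding, and no start was called in mock. The region measured 5535, 6570 and 1727 bp and held 371.4, 538.7 and 144.3 normalized tags. MST1R, the receptor tyrosine kinase RON, was joined with lncRNA starts at 441.6, 472.6 and 205.0 normalized tags. CPVL, a carboxypeptidase, and CHN2, a chimaerin that inactivates Rac, start on opposite strands and held 284.9, 369.7 and 101. TNK2, a non-receptor tyrosine kinase, and its antisense gene TNK2-AS1 held 174.8, 251.3 and 34.6, at 2413, 2810 and 663 bp. The counts do not use strand, so the parts of the opposed genes cannot be told apart. At BTBD19 and DYNLT4 the tags, 82.6, 93.8 and 63.5, differed from mock by less than counting error, with log2 ratios of 0.38 (-0.31 to 1.13) and 0.56 (-0.10 to 1.29), and the ratio after *E. coli* MVs was -0.10 when scaled to tags in called peaks. There the called size changed to 2792 and 2934 bp with the MVs, against 1131 bp in mock, while the tag count gave no clear difference.

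KCNQ1, a voltage-gated potassium channel, and TRPM5, a cation channel of taste and tuft cells, were chosen after their values were seen. Their common region had no mock peak at either start and held 444.5, 596 and 187.6 normalized tags at 4965, 5858 and 2001 bp. RHOB, a small GTPase of early growth responses, joined with a lncRNA start, held 270.7, 386.6 and 92.4, also chosen after its values were seen.

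Most gene lists had few genes at widened regions. Of 11401 protein-coding genes with a start within 1000 bp of an eligible region, 416 (3.65%) were at a widened one. Of the 25 immediate early genes so measured, 2 were, namely KLF2 and DUSP1, a phosphatase of MAP kinases. KLF2 measured 1825, 2003 and 671 bp with 129.2, 208.3 and 43.3 normalized tags, log2 ratios of 1.58 (0.80 to 2.45) and 2.27 (1.52 to 3.12). Its start and that of the divergent KLF2-DT were in no mock peak. DUSP1 measured 3386, 3373 and 1676 bp with 258.4, 382.7 and 141.5. Of 24 NF-kB and TNF target genes only TRAF1 was at a widened region, a share of 4.17%.

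The Wnt list had 3 of 18 genes at widened regions and the TGF-beta and SMAD list 3 of 27. In the Wnt list these were AXIN1, WNT11, a secreted ligand, and ZNRF3, a ligase that removes Frizzled receptors. AXIN1 had 268.8, 289.0 and 118.4 normalized tags and WNT11 had 247.9, 335.8 and 86.6, with intervals above 0 for both MVs. ZNRF3 had 62.6, 76.1 and 54.8, with intervals of its log2 ratios of -0.56 to 1.01 and -0.25 to 1.26, and these include 0. In the TGF-beta list they were SKI and SKIL, which repress SMAD targets, and LTBP3, which binds latent TGF-beta. ZNRF3 and LTBP3 lie outside the naming rule and are given to complete the lists. SKI had 538.5, 635.6 and 181.9, SKIL 122.5, 222.1 and 63.5, and LTBP3 105.4, 183.7 and 37.5 normalized tags. With so few genes these shares have wide error, and no list was tested against the background.

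Of the other lists, 1 of 23 receptor tyrosine kinase genes (FGFR4), 1 of 21 junction genes (TJP3, the scaffold protein ZO-3), 1 of 80 ribosomal protein genes (RPLP0), 9 of 367 zinc finger genes and 2 of 55 histone genes (H4C12 and H1-3) were at widened regions. FGFR4 had 160.5, 199.8 and 57.7 normalized tags and TJP3 had 227.0, 285.1 and 112.6, both with intervals above 0. None of 14 intestinal identity factors, none of 18 genes of H3K4 methyltransferases and demethylases and none of 21 HOX genes were.

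The sequence of the widened regions was richer in GC than that of the others. GC had a median of 58.2% in the mock part and 59.0% in the gained part, where the other eligible regions had 52.6% and 49.4%. The ratio of observed to expected CpG had medians of 0.51 and 0.48 in the widened regions and 0.62 and 0.37 in the others, so the gained part was close to the mock part in the widened regions and poorer in CpG in the others. With a protein-coding start the widened regions had 63.6% GC in the mock part and 63.1% in the gained part, and with none 49.8% and 50.2%. The 300 bases outward of the mock edge, where the gain covered them with both MVs, held a median of 20 CpG at widened regions with a protein-coding start (517 edges). At the other eligible regions with such a start the median was 8 CpG (3601 edges).

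The tag ratio moved with GC. In 3 groups of near-equal number by GC of the mock part (234, 233 and 234), the widened regions had median log2 tag ratios of 0.80, 1.11 and 1.42 after *E. coli* MVs and 0.65, 1.40 and 1.87 after *V. cholerae* MVs, from low to high GC. The share with a protein-coding start was 19.7%, 61.8% and 79.5% in the same order. Whether GC recovery differed among the libraries was not tested.

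Short motifs were searched in those 300-base windows on both strands. GGGCGG, the GC box bound by SP-family factors, was in 58.2% of gained edges with a protein-coding start, against 33.3% at the other eligible regions with such a start and 16.0% of all 29347 edges of eligible regions. At edges with no start it was in 25.6%, against 16.0% at the other regions with none. TGANTCA, the letters bound by AP-1, were in 16.6% of 301 gained edges of widened regions with no start and in 4.45% of those with a protein-coding start. The other eligible regions with no start had 17.4% of 768 gained edges, so the letters were not more frequent at the widened ones. CCAAT was in 22.8% of all gained edges of widened regions, against 28.5% of gained edges of the other eligible regions and 31.4% of all edges. GGGCGG holds a CpG and moves with the CpG content given above. A gained edge with the AP-1 letters, in capitals, in an intron of INO80C, a subunit of a chromatin remodeller, shows how different such sequence is, with 3 CpG in 300 bases. It was chosen after its values were seen, as the region with no start, these letters and most mock tags.
INO80C intron chr18:33058538-33058837, plus strand: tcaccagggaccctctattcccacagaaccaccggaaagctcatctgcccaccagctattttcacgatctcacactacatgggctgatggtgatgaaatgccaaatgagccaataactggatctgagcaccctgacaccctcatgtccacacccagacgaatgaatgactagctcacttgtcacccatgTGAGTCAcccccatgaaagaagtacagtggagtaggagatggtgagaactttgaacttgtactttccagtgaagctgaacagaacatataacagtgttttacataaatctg
That region held 193.8, 136.02 and 135.7 normalized tags, so it was wider with both MVs while its tag count was clear of mock only after *E. coli* MVs (0.51, interval 0.05 to 1.00) and not after *V. cholerae* MVs (0.00, interval -0.47 to 0.50).

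The 270 widened regions with no start lay mostly inside genes. In 166 (61.5%) the mock peak centre was in an intron of a protein-coding gene, in 12 (4.44%) in an exon and in 92 (34.1%) outside. The other eligible regions with no start also lay mostly inside genes, with 55.4%, 3.06% and 41.6%. The nearest protein-coding start was at a median of 18258 bp, against 24846 bp for the other eligible regions with no start. Such regions were thus far from known starts in both groups.

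FAIRE, formaldehyde-assisted isolation of regulatory elements, recovers DNA with few nucleosomes and comes from other libraries than those that chose the regions. Its libraries held 7888670 tags after *E. coli* MVs, 12077180 after *V. cholerae* MVs and 14474665 in mock, with 37.3%, 13.9% and 7.12% of tags in called peaks. A FAIRE peak overlapped 88.7% of the widened regions after *E. coli* MVs (95% exact binomial interval 86.2 to 91.0), 67.8% after *V. cholerae* MVs (64.2 to 71.2) and 39.7% in mock (36.0 to 43.4). The other eligible regions had 84.0%, 70.6% and 34.2%. FAIRE peaks were in 225 widened regions in all libraries, in 227 with both MVs and not in mock, and in 52 in none. These are 32.1%, 32.4% and 7.42%, against 29.4%, 38.5% and 12.8% of the other eligible regions, so a FAIRE peak with both MVs and not in mock was less frequent in the widened ones.

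The classes differed. With no start, 78.1% of widened regions had a FAIRE peak after *E. coli* MVs (72.7 to 82.9), 67.8% after *V. cholerae* MVs (61.8 to 73.3) and 31.9% in mock (26.3 to 37.8). The other eligible regions with no start had 44.4%, 40.9% and 17.7%, lower in each library including mock. Regions with no start were wider after MVs in the widened class, at 2160 and 2030.5 bp against 1414 and 1259.5 bp. Per kb of the mock-called part, FAIRE peaks numbered 0.333, 0.320 and 0.108 in the widened regions with no start and 0.217, 0.205 and 0.0754 in the others. The mock parts had median sizes of 770.5 and 1138.5 bp, and the part of size in these differences was not tested. With a protein-coding start, the widened regions had FAIRE peaks in 96.3% after *E. coli* MVs, 68.9% after *V. cholerae* MVs (63.9 to 73.5) and 45.5% in mock (40.4 to 50.7), against 97.2%, 80.8% and 39.9% in the others. Regions are not replicates of a treatment, and these intervals carry no spread between cultures.

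**Figure D4:**
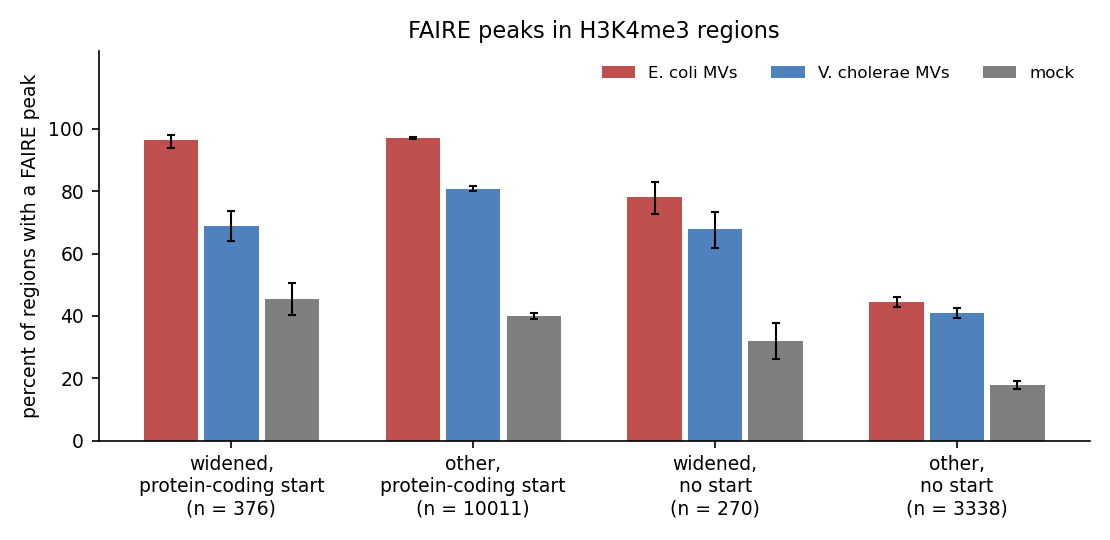
Percent of H3K4me3 regions overlapped by a FAIRE peak after *E. coli* MVs, *V. cholerae* MVs and in mock, for widened and other eligible regions with a protein-coding start and with no start. Error bars are 95% exact binomial intervals (counting error only); widened regions with no start had FAIRE peaks in 78.1%, 67.8% and 31.9%, against 44.4%, 40.9% and 17.7% of the others.

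In the part gained with both MVs, FAIRE peaks numbered 0.332 per kb (0.297 to 0.371) after *E. coli* MVs, 0.298 (0.264 to 0.334) after *V. cholerae* MVs and 0.134 (0.111 to 0.159) in mock. The gained part of the other eligible regions had 0.206, 0.248 and 0.124. Over all classes together, the gained part of the widened regions held more FAIRE peaks per kb than that of the others with both MVs. The counting intervals did not overlap there (0.193 to 0.219 and 0.234 to 0.262 in the others), and in mock they overlapped (0.114 to 0.134 in the others). Within classes, the intervals after *V. cholerae* MVs overlapped with a protein-coding start (0.249 to 0.341 against 0.234 to 0.266) and with no start (0.247 to 0.368 against 0.210 to 0.276). After *E. coli* MVs they overlapped with no start (0.266 to 0.391 against 0.252 to 0.324). With a protein-coding start they did not (0.283 to 0.381 against 0.172 to 0.201). Mean normalized FAIRE tags in called peaks were 136, 29.0 and 6.58 per widened region, and 26.0 and 14.9 after the MVs when scaled to the tags in all FAIRE peaks of each library. By FAIRE tags summed over the 3 libraries the highest widened regions were LAMA5, a laminin chain of the basement membrane, with 1120.6, 75.4 and 22.8 normalized FAIRE tags, and MNT, a repressor that pairs with MAX, with 988.8, 207.8 and 15.2. PTK6, a tyrosine kinase of epithelia, had 665.5, 138.3 and 24.9, and SYT8, a synaptotagmin, had 737.8, 115.1 and 26.9. The sum that chose these 4 is mostly that of the *E. coli* MV library, so their order among the libraries restates the choice. A FAIRE peak after *V. cholerae* MVs and at least 2-fold more FAIRE tags after *E. coli* MVs were found in 50.1% of the widened regions. The share was 51.5% in the other eligible regions. Regions with no FAIRE peak after *V. cholerae* MVs (a peak was present in 475 of the 701) count as not higher in these shares. LAMA5 also had 4 H3K4me3 peaks in mock, 2 after *E. coli* MVs and 1 after *V. cholerae* MVs.

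The 2 kinds of MV were close in size and less so in tags. The median log2 ratio of *E. coli* MVs over *V. cholerae* MVs was -0.04 in size and -0.24 in tags over the widened regions, against -0.06 in tags over the others. More tags after *E. coli* MVs than after *V. cholerae* MVs were found in 30 of 376 widened regions with a protein-coding start (7.98%) and in 130 of 270 with none (48.1%). Among the other eligible regions the shares were 31.8% and 67.6%, so the classes differed in the same direction there and both shares were lower in the widened regions. The median log2 ratio in tags was -0.34 with a protein-coding start and -0.01 with none, against -0.10 and 0.30 in the others. SKIL, with 122.5 normalized tags after *E. coli* MVs and 222.1 after *V. cholerae* MVs, belongs to the first kind, and the SPRED2 intron, with 94.0 and 79.2, to the second.

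**Figure D5:**
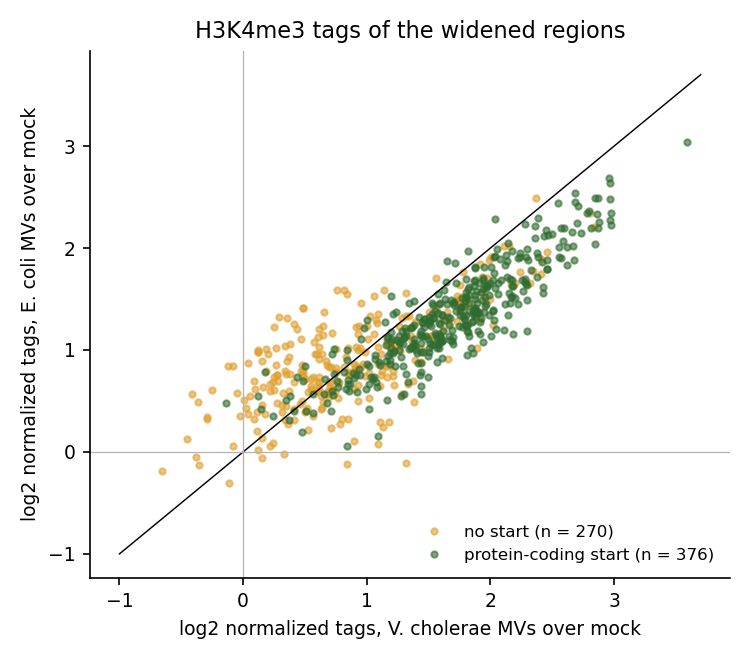
Log2 ratio of normalized H3K4me3 tags over mock after *E. coli* MVs (vertical) against that after *V. cholerae* MVs (horizontal) for widened regions with a protein-coding start (n = 376) and with no start (n = 270). Points are regions and the diagonal marks equal ratios; 30 of the regions with a start and 130 of those without lie above it.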

How the data were processed

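H3K4me3 ChIP sequencing and FAIRE sequencing of HCT8 cells gave 1 peak list per treatment and assay. The submitters' processing notes name Bowtie 1.1.2, SAMtools 1.3.1 and HOMER 4.7.2, and the build is hg19. The paper's methods name Bowtie 2 and MACS besides, and the file headers show HOMER. Per the file headers, the authors called peaks of at least 500 bp in histone mode, at 4-fold over input with a Poisson p-value of 0.0001. The deposited normalized tag count is a signal per 10000000 tags of the library. The deposited lists also give tag counts of peak and input, their ratio (fold over input) and its p-value, which are the authors' comparison with input and were used only for the alternative peak threshold.

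Peaks sharing at least 1 bp were merged, and sizes and tags summed per library. Whole tags were recovered from the normalized values and library totals, to within 0.0721 of a whole tag at most. Start sites came from GENCODE release 44 on the same build (19807 protein-coding and 18678 lncRNA genes), and sequence from the hg19 genome. Intervals are exact (conditional binomial for tag ratios, Poisson for peaks per kb, Clopper-Pearson for shares, order statistics for medians) at 95%, and median intervals run over regions. Analysis used Python 3.11.15, pandas 2.3.3, numpy 2.4.6, scipy 1.17.1 and pysam 0.24.0, and the procedure was tested on simulated data.

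A region is called by the protein-coding gene with the nearest start within 1000 bp, else by a lncRNA gene, else by position. Named were the 8 regions with the highest smaller size ratio, the 8 with most mock tags, up to 6 with most starts joined, 3 just inside and 3 just outside the threshold, at most 2 per gene list and the 4 with most FAIRE tags. The regions and lists were chosen with earlier results of these data known. Columns of each list were read as that library's own, and 0 columns of other samples were found.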

Additional observations from a re-analysis of the deposited data

Results flagged for a closer look

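In the widened regions with a protein-coding start, tags per kb differed in direction between the MVs, with a median log2 ratio over mock of -0.0605 after *E. coli* MVs and 0.241 after *V. cholerae* MVs. In the middle of 3 groups by GC of the mock part, with 233 regions, the medians were -0.205 and 0.00776. Scaling to tags in called peaks shifts every log2 ratio by -0.48 after *E. coli* MVs and -0.54 after *V. cholerae* MVs. All these medians then lie below mock, so the difference in direction holds for the deposited scaling only. Region by region, 133 widened regions had tags per kb above mock with one kind of MV and below mock with the other, and in 118 of these it was *V. cholerae* MVs that lay above. Of the 118, 94 held a protein-coding start. In total tags the MVs differed in direction in 18 widened regions, and in 13 of these *E. coli* MVs lay above mock. With 1 library per treatment, the differences between the MVs were not tested.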

How the results depend on the processing

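No paired analysis was possible because there were no replicates to pair. In order, values are given for a size ratio of 1.5, a ratio of 3, at least 15 mock tags, at least 60 mock tags, peaks at 8-fold over input, and an added density at the threshold of the mock list header, the last chosen after seeing the data. The number of widened regions (701) was 2107, 119, 1440, 250, 428 and 424. Newly covered starts (33.1%) were 23.5%, 40.3%, 27.4%, 38.0%, 42.8% and 42.5%. GC of the gained part (59.0%) was 56.6%, 60.3%, 57.0%, 60.8%, 62.5% and 63.2%, and 61.3% and 61.7% in 300-bp windows outward and inward of the mock edge. Settings not given for a result below moved it by less than its spread.

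The median log2 tag ratio after *E. coli* MVs (1.13) was 0.89 at a ratio of 1.5, 1.5 at 3, 1.22 at 15 tags, 1.25 at 8-fold, 1.35 at the added density and 0.64 scaled to tags in called peaks. With *V. cholerae* MVs (1.36) it was 1.11 at 1.5, 1.79 at 3, 1.61 at 8-fold, 1.76 at the added density and 0.82 scaled. Per kb after *E. coli* MVs (-0.24) it was -0.10 at 1.5, -0.40 at 3, -0.18 at 60 tags, -0.0869 at 8-fold and -0.72 scaled, and turned to 0.0141 at the added density. Per kb after *V. cholerae* MVs (-0.06) it was -0.17 at 15 tags and -0.60 scaled, and turned to 0.0647 at 1.5, 0.0177 at 60 tags, 0.17 at 8-fold, 0.00764 with 1 peak in each library and 0.30 at the added density. The cause was not tested.

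Newly covered starts were 25.5% with protein-coding starts only and 19.8% within 200 bp of a peak. Joined starts (8.56%) were 12.6% at a ratio of 3, 12.9% at 8-fold, 11.6% at the added density, 1.997% with protein-coding starts only and 6.56% with the longest transcripts. FAIRE shares after *E. coli* MVs (88.7%) were 84.9% at 3, 83.3% at 15 tags, 92.4% at 60, 95.1% at 8-fold, 96.9% at the added density, 75.9% at 50% overlap and 7.56% for FAIRE peaks at 2 times the median fold. With *V. cholerae* MVs (67.8%) they were 62.6% at 15 tags, 71.6% at 60, 72.2% at 8-fold, 63.8% at 50% overlap and 1.71% at 2 times the median fold. In mock (39.7%) they were 44.5% at 3, 33.5% at 15 tags, 48.4% at 60, 44.9% at 8-fold, 45.5% at the added density, 35.1% at 50% overlap and 0.856% at 2 times the median fold. Scaled to tags in FAIRE peaks, mean FAIRE tags per widened region were 26.0 after *E. coli* MVs (136 as deposited) and 14.9 after *V. cholerae* MVs (29.0). Under scaling to called peaks GCN1 turned to -0.16 after *V. cholerae* MVs, and BTBD19 to -0.10 and ENSG00000283828 to -0.0331 after *E. coli* MVs. Mock depth, with a median of 16 tags per widened region, limits all tag ratios.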
